A study of Mus musculus with 11 samples.

Results

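The genes described here make, cut or bind hyaluronan, and they were examined in the epithelium of the pubertal mouse mammary gland. The list held 8 genes. They were the hyaluronan synthase genes Has1, Has2 and Has3, the hyaluronidase genes Hyal1 and Hyal2, and the genes of 3 hyaluronan-binding proteins, Cd44, Vcan and Hmmr. All 8 of the 27179 genes in the count table were found by symbol through their Entrez identifiers, and all 8 were among the 17370 genes that passed the filter on low counts. Has2 was chosen by its measured levels, which earlier results of these data showed higher in luminal cells of end buds than of ducts but not in basal cells, so its values are given as a description, without a test. The other 7 members were tested.

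Hyaluronan is a very long, unbranched sugar polymer of the extracellular matrix. It is spun out through the plasma membrane by synthases that join UDP-glucuronic acid and UDP-N-acetylglucosamine, and it holds water and opens space between cells. Hyaluronidases cut it into fragments, cell-surface receptors bind it, and proteoglycans such as versican carry it in large matrix aggregates. Hyaluronan-rich matrix is known around branching epithelia and dividing or migrating cells.

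The RNA came from C57BL/6 females aged 5 weeks that carry an E-cadherin-GFP reporter, which all 4 groups shared. Glands were micro-dissected into terminal end buds (TEBs), the growing tips of the ductal tree, and ducts. From each, lineage-negative CD29+CD24+ cells were sorted as luminal (GFP bright) or basal (GFP dim). There were 3 libraries each of basal duct, basal TEB and luminal TEB cells and 2 of luminal duct cells, numbered 1 and 3. Each replicate was a pool of at least 2 mice, so the spread between libraries is between pools and not between animals.

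The libraries held between 27989137 and 49221436 counts. Levels are in CPM, the counts of a gene relative to the library size after TMM normalization, in the usual CPM unit. By summed markers the sorted populations matched their labels as basal or luminal. The 7 basal markers summed to between 15368.5 and 18825 CPM in basal duct, 5281 and 8287 CPM in basal TEB, and 12.7 and 239 CPM in the luminal libraries. The 9 luminal markers summed to between 10910 and 15952 CPM in luminal libraries and to between 507 and 708 CPM in basal ones. Whether the mix of cells within either sort differed between TEBs and ducts was not tested. Counts on mitochondrial genes made up 37.5% of basal TEB replicate 1 and 28.5% of luminal duct replicate 3, and between 4.34% and 17.8% of the others. Basal duct replicate 2 also stood apart, with 175 CPM on 5 endothelial markers and 187 CPM on 5 adipocyte markers, against at most 35.9 and 75.1 CPM in any other library. Of its adipocyte sum, 179 CPM was Fabp4 alone, and Adipoq and Plin1 were at 0. The 75.1 CPM, in luminal duct replicate 3, was all Fabp4. Fewer cells with a transcript and less transcript in each cell cannot be told apart in such bulk samples.

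The 3 synthase genes are paralogs, and a short window of each shows how alike they are. The windows below cover the codons of the Gln-x-x-Arg-Trp motif, a conserved catalytic motif of these enzymes, with the 15 bases of the motif in capitals and 21 bases on either side, from the mouse assembly GRCm38 (mm10) with the GENCODE M21 annotation. All 3 lie in coding exons. The window of Has1 is chr17:17844203-17844259 on the minus strand, that of Has2 is chr15:56668235-56668291 on the minus strand, and that of Has3 is chr8:106878202-106878258 on the plus strand.
Has1: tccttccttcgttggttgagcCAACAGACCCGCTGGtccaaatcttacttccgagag
Has2: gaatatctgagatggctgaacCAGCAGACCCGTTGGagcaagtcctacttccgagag
Has3: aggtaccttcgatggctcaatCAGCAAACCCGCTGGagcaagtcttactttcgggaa
Has1 and Has2 differed at 16 of the 57 bases, Has1 and Has3 at 17, and Has2 and Has3 at 14. Over the whole coding sequence, identity was 64.2%, 69.1% and 70.0% in the same order, and over the protein 55.2%, 58.6% and 71.3%. No stretch of 80 bases, the length of 1 read, was shared between any pair of the 3 genes (0 shared 80-mers), nor between Hyal1 and Hyal2 (0 shared 80-mers). Overlapping genes did share 80-mers, with 56 between Has2 and Has2os and 84 between Hyal1 and its neighbour Hyal3. These numbers count each shared 80-mer on both strands. Naa80, which also overlaps Hyal1, was not in this check.

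Has2 (Entrez 15117, chr15:56665627-56694546, minus strand) encodes the main synthase of many embryonic and connective tissues. Its level was 65.6, 72.0 and 83.8 CPM in the basal duct libraries and 42.1, 48.0 and 78.1 CPM in the basal TEB libraries. The ranges of those groups overlapped. In luminal cells it was 3.98 and 3.33 CPM in the ducts and 30.4, 40.7 and 41.8 CPM in the TEBs, so each luminal TEB library lay above each luminal duct library. The luminal TEB mean was 37.6 ± 6.31 CPM (SD, n = 3) and the luminal duct mean 3.66 ± 0.461 CPM (SD, n = 2), a difference of 3.36 on the log2 scale or 10.3-fold, which is the pattern the gene was chosen for. In basal cells the TEB mean of 56.1 ± 19.3 CPM and the duct mean of 73.8 ± 9.22 CPM (SD, n = 3 each) differed by -0.39 on the log2 scale. The order of the groups was basal duct, basal TEB, luminal TEB and luminal duct, and of neighbours in that order only the first pair overlapped, though the lowest basal TEB library (42.1 CPM) was barely above the highest luminal TEB library (41.8 CPM). Basal minus luminal was 4.33 on the log2 scale in ducts and 0.58 in TEBs. The summed basal markers in the luminal libraries were 87.8 and 239 CPM in ducts and 12.7 to 25.8 CPM in TEBs, and the part of basal RNA in the Has2 values was not tested.

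A long non-coding gene, Has2os (Entrez 594843, chr15:56689944-56694460, plus strand), lies over the start of Has2 on the opposite strand. In GENCODE M21 the 2 genes share 182 exon bases, 4.30% of the exons of Has2. The deposited length of Has2os is 485 bases, against 1628 exon bases in GENCODE M21. The library kit does not mark strand, so reads in those bases cannot be told apart. Has2os had 0, 11 and 20 counts in basal duct, 1, 49 and 19 in basal TEB, 62 and 2 in luminal duct, and 59, 83 and 89 in luminal TEB. The counts of Has2 itself were 175 and 81 in luminal duct and 1355, 2137 and 2171 in luminal TEB. How many reads in the shared bases were counted to either gene was not tested.

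Has3 (Entrez 15118, chr8:106870242-106882902, plus strand) encodes a synthase that makes shorter chains. It was scarce, at 0.459, 3.50 and 6.93 CPM in basal duct and 3.58, 8.08 and 6.61 CPM in basal TEB, and those ranges overlapped. Both luminal duct libraries had 0 counts, and the luminal TEB libraries had 1.95, 1.43 and 1.41 CPM, or 87, 75 and 73 counts. Against a limit of 3 counts over the luminal duct libraries (0.0440 CPM), Has3 was at least 82.5-fold higher in basal than in luminal duct (adjusted p = 0.00383). That bound was 29.4-fold without luminal duct replicate 1, 53.1-fold without luminal duct replicate 3 and 45.0-fold without basal duct replicate 3. It allows for counting error in luminal duct only and not for the spread of basal duct, where replicate 1 was at 0.459 CPM. The call was lost with limma voom with sample quality weights (adjusted p = 0.0746). The luminal TEB mean of 1.60 ± 0.308 CPM was at least 36.3-fold higher than luminal duct by the same limit (12.9-fold without luminal duct replicate 1 and 23.4-fold without replicate 3), but missed the threshold (adjusted p = 0.0536, unadjusted p = 0.000817). The adjusted p of that comparison ran from 0.000438 to 0.258 over 24 alternatives and was below 0.05 in 6 of them, among them those without basal duct replicate 1 (0.0412) and without basal TEB replicate 1 (0.0421). Between basal and luminal TEB the log2 difference was 1.93 (SE 1.03, adjusted p = 0.205). In GENCODE M21 an exon stretch of 352 bases is shared with Chtf8 on the opposite strand.

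Has1 (Entrez 15116, chr17:17833691-17855589, minus strand) is the remaining synthase gene. It was measured at 9.68, 8.05 and 1.98 CPM in basal duct, 0, 2.55 and 2.41 CPM in basal TEB, 1.89 and 0 CPM in luminal duct and 1.68, 1.01 and 0.636 CPM in luminal TEB. Of the groups compared, only basal and luminal duct did not overlap, and the 0 values were in basal TEB replicate 1 and luminal duct replicate 3, the pair with the highest mitochondrial share, where 0 counts allow up to 0.173 and 0.123 CPM. No comparison of Has1 passed the threshold. The lowest adjusted p was 0.342, for basal against luminal duct, where the log2 difference was 2.78 (SE 1.99).

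Per length, Has2 made up most of the synthase RNA in every library, though by little in 1. RPKM, the CPM divided by the gene length of the deposited table in kilobases, put Has2 at 76.7% to 94.3% of the 3 synthases together in basal libraries and at 86.3% to 94.8% in luminal TEB. In luminal duct replicate 1 its share was 51.0%, with Has1 making up the rest, and in luminal duct replicate 3 it was 100%. The deposited length of Has1 is 2092 bases, against 4518 exon bases in GENCODE M21, while Has2 has 4244 and 4237. With the longer Has1 the share of Has2 in luminal duct replicate 1 would be higher, and those shares were not computed. The stacked plot of synthase levels gives the 3 genes by library.

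**Figure D1:**
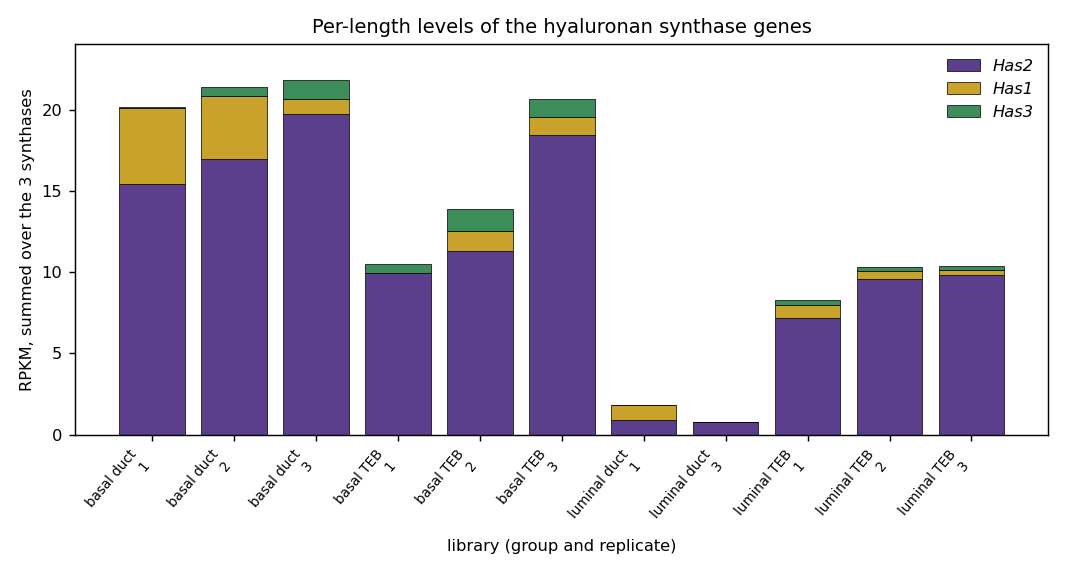
Stacked bars give the RPKM of Has2, Has1 and Has3 in each of the 11 libraries (bottom to top, linear axis from 0, no error bars because each bar is 1 library). By the deposited gene lengths, Has2 forms the larger part in each library, and its share is lowest in luminal duct replicate 1, at 51.0%.

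The hyaluronidases act after synthesis. Hyal2 (Entrez 15587, chr9:107567873-107572778, plus strand) encodes a membrane-anchored enzyme that cuts long chains at the cell surface. Its level was 43.9, 58.9 and 71.5 CPM in basal duct, 31.5, 65.9 and 77.2 CPM in basal TEB, 14.9 and 4.44 CPM in luminal duct and 17.1, 19.1 and 16.7 CPM in luminal TEB. Every basal library was above every luminal one. Basal cells were 5.98-fold higher in ducts (log2 difference 2.58, SE 0.51, adjusted p = 0.00323) and 3.30-fold higher in TEBs (1.72, SE 0.42, adjusted p = 0.0101). Basal TEB and basal duct differed by 0.0038 on the log2 scale (SE 0.41), with adjusted p = 1. In luminal cells the TEB libraries were higher than the duct libraries without overlap, but the difference of 0.86 (SE 0.48, adjusted p = 0.380) depended on which duct library was used. Leaving out luminal duct replicate 1 gave 1.99 (adjusted p = 0.0400), and leaving out replicate 3 gave 0.25. The basal minus luminal difference in ducts was 3.71 and 1.96 in the same pair of fits, and was called in both.

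Hyal1 (Entrez 15586, chr9:107576950-107581699, plus strand) encodes the lysosomal enzyme that digests shorter chains. Its level was 39.1, 14.5 and 30.8 CPM in basal duct, 26.4, 23.9 and 14.1 CPM in basal TEB, 7.67 and 5.72 CPM in luminal duct and 6.05, 5.77 and 6.03 CPM in luminal TEB. Like Hyal2, it was higher in all basal libraries than in all luminal ones, and TEBs and ducts overlapped within each cell type. The basal level was 4.20-fold higher in ducts (log2 difference 2.07, SE 0.48, adjusted p = 0.00828) and 3.61-fold higher in TEBs (1.85, SE 0.41, adjusted p = 0.00535). The call in ducts was lost without luminal duct replicate 3 (1.87, adjusted p = 0.0577), and over 24 alternatives the adjusted p ran from 0.000128 to 0.0951. TEB against duct gave -0.39 in basal (SE 0.40) and -0.17 in luminal cells (SE 0.44), neither past the threshold (adjusted p = 0.705 and 0.890). In GENCODE M21, Hyal1 shares 1920 exon bases with Naa80 on the same strand, 50.8% of its 3777 exon bases there, and 159 with Hyal3 on the same strand. Its deposited gene length is 2179 bases, and how much of these overlaps lies in the gene model that was counted was not tested. How its reads were split among the 3 genes is thus uncertain.

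Cd44 (Entrez 12505, chr2:102811141-102901669, minus strand) encodes the main cell-surface receptor for hyaluronan. Its level was 183, 147 and 156 CPM in basal duct, 245, 155 and 238 CPM in basal TEB, 33.5 and 38.8 CPM in luminal duct and 56.1, 69.7 and 62.0 CPM in luminal TEB. The lowest basal library was over the highest luminal one. Basal cells were 4.48-fold higher in ducts (log2 difference 2.16, SE 0.24, adjusted p = 4.81e-05) and 3.40-fold higher in TEBs (1.76, SE 0.20, adjusted p = 4.42e-05), and both calls held in all 24 alternatives. In luminal cells each TEB library was above each duct library, with means of 62.6 ± 6.83 CPM (SD, n = 3) and 36.2 ± 3.73 CPM (SD, n = 2), but the log2 difference of 0.79 (SE 0.22) did not pass (adjusted p = 0.105, unadjusted p = 0.00420). In basal cells the difference was 0.39 (SE 0.19, adjusted p = 0.383).

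Vcan (Entrez 13003, chr13:89655309-89743027, minus strand) encodes versican, a large proteoglycan whose head binds hyaluronan and whose long chains of chondroitin sulfate swell the matrix. It had the highest level of the 8 genes in basal cells, in CPM and per length, and per length was at rank 7 in luminal duct and rank 8 in luminal TEB. The basal duct libraries had 910, 314 and 1136 CPM and the basal TEB libraries 1958, 1598 and 1631 CPM. The luminal duct libraries had 3.66 and 8.02 CPM and the luminal TEB libraries 3.45, 3.49 and 2.70 CPM. Vcan was therefore 136-fold higher in basal than luminal duct (log2 difference 7.09, SE 0.63, adjusted p = 1.09e-05) and 538-fold higher in TEBs (9.07, SE 0.57, adjusted p = 5.4e-07). The duct value was 7.74 without luminal duct replicate 3, the library with the higher Vcan and the higher basal marker sum of the pair. In luminal libraries the summed basal markers were 87.8 and 239 CPM in ducts and 12.7 to 25.8 CPM in TEBs. The part of basal RNA in the luminal Vcan values, and so in these folds, was not tested. All 3 basal TEB libraries were above all 3 basal duct libraries, with means of 1729 ± 199 and 787 ± 425 CPM (SD), but the log2 difference of 1.14 (SE 0.40) did not pass (adjusted p = 0.227, unadjusted p = 0.0155). Without basal duct replicate 2, the lowest of them, the difference was 0.76, and limma voom called it (1.30, adjusted p = 0.0379, from a range of 0.0379 to 0.571 over 24 alternatives). In luminal cells the TEB libraries were lower than the duct libraries (-0.85, SE 0.46, adjusted p = 0.372), by only 0.19 (-0.19) when luminal duct replicate 3 was left out, and the TEB effect in basal minus that in luminal cells was 1.99 (SE 0.61, adjusted p = 0.180).

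Versican is also a known product of fibroblasts, so fibroblast markers were looked at beside it. The 7 markers summed to between 432 and 856 CPM in basal duct, 227 and 413 CPM in basal TEB, 6.03 and 259 CPM in luminal duct and 11.7 and 53.9 CPM in luminal TEB. The sum was lower in basal TEB than in basal duct, where Vcan was the reverse, and within basal duct the library with the highest sum, replicate 2, had the lowest Vcan. Dcn alone made up 318 of the 432 CPM in basal duct replicate 1 and 157 of the 227 CPM in basal TEB replicate 1. All 7 markers had a lower mean in basal TEB, but only Dcn did so without overlap. Col1a1 was at 6.68 CPM in basal duct replicate 1, below each basal TEB library (19.5, 41.1 and 20.9 CPM). In luminal duct the order was the same for both, since replicate 3 had the higher fibroblast sum and the higher Vcan. Between 0 and 2 of the 7 markers were at 0 counts in a basal library and between 0 and 1 in a luminal one. The part of fibroblast RNA in the Vcan values was not tested.

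Hmmr (Entrez 15366, chr11:40701388-40733464, minus strand) encodes RHAMM, which binds hyaluronan at the cell surface and works on the mitotic spindle inside the cell. Its level was 33.3, 4.39 and 34.5 CPM in basal duct, 37.1, 52.1 and 38.8 CPM in basal TEB, 11.7 and 9.95 CPM in luminal duct and 52.4, 46.7 and 55.0 CPM in luminal TEB. TEB libraries were above duct libraries without overlap in both cell types. The luminal TEB mean of 51.4 ± 4.25 CPM (SD, n = 3) was 4.75-fold the luminal duct mean of 10.8 ± 1.20 CPM (SD, n = 2), but the log2 difference of 2.25 (SE 0.65) did not pass (adjusted p = 0.111, unadjusted p = 0.00470). In basal cells it was 0.83 (SE 0.53, adjusted p = 0.510). The spread within basal duct bears on these tests. Without basal duct replicate 2 the luminal difference stayed at 2.25 and passed (adjusted p = 0.00861), the basal one was 0.33, Hmmr was 1.65 log2 units higher in basal than luminal duct (adjusted p = 0.00104, against 1.16 and 0.205 with it), and the TEB effect in basal minus that in luminal cells was -1.92 (adjusted p = 0.0463, against -1.42 and 0.428). Over the alternatives the adjusted p ran from 0.00496 to 0.371 for the luminal difference, from 0.00104 to 0.567 for basal against luminal duct and from 0.0299 to 0.679 for the difference between the cell types.

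Spindle and cell cycle genes were set beside Hmmr. The 14 such genes of a list summed to 990, 340 and 1045 CPM in basal duct, 1154, 1606 and 1815 CPM in basal TEB, 511 and 566 CPM in luminal duct and 1434, 1339 and 1573 CPM in luminal TEB. Basal duct replicate 2 was lowest in both, and the luminal TEB libraries were among the highest in both. Hmmr was equal to 1.29% of the summed list in basal duct replicate 2, 1.76% and 2.28% in the luminal duct libraries, and 2.14% to 3.65% in the other 8. In the list itself, 14 of 14 genes had a positive TEB minus duct value in each cell type, with a median log2 difference of 0.79 in basal and 1.61 in luminal cells, against -0.03 and 0.04 over all genes tested. Only Plk1 and Cenpe of the list passed, both in luminal cells.

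**Figure D2:**
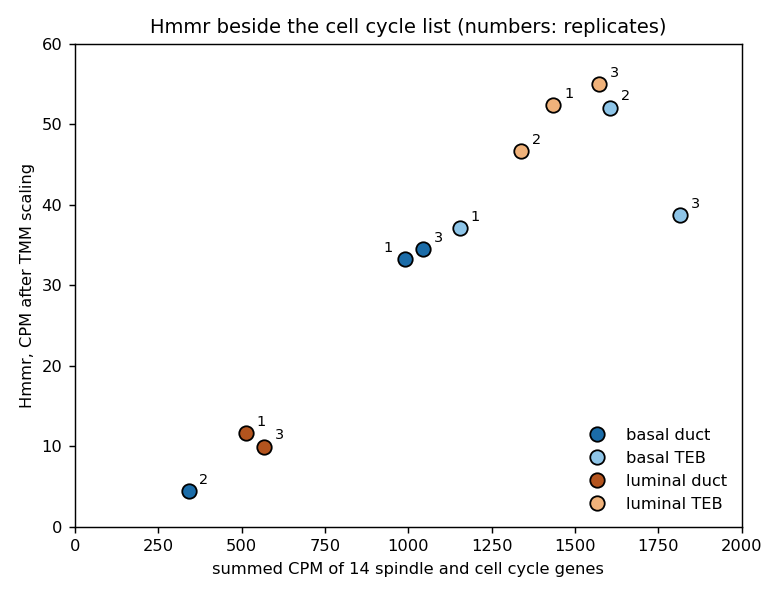
Each point is 1 of the 11 libraries, with the summed CPM of 14 spindle and cell cycle genes on the x axis and the CPM of Hmmr on the y axis (both linear), coloured by group and numbered by replicate. Basal duct replicate 2 and the luminal duct libraries lie at the lower left, at no more than 566 summed CPM and 11.7 CPM of Hmmr, and the luminal TEB libraries at the upper right.

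Since Hmmr moved beside cell cycle genes, its promoter is shown. The window runs from 250 bases before the RefSeq start to 20 bases into the transcript, chr11:40733418-40733687 on the minus strand of GRCm38.p6. Both strands were searched. Capitals mark every match to the CCAAT box (CCAAT, in this promoter always read in reverse), the GC box (GGGCGG) and a form of the cell cycle gene homology region known from promoters of mitotic genes (TTTGAA).
Hmmr promoter: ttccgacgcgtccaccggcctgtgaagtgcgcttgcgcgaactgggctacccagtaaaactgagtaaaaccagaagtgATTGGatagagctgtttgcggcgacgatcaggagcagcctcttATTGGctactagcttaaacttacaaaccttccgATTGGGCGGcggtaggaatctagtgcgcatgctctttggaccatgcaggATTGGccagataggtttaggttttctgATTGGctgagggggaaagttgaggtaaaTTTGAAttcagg
The window held 5 reversed CCAAT boxes, with their leftmost bases at -172, -129, -96, -47 and -20 from the start, 1 GC box at -93 that overlaps the box at -96, and 1 homology region at 8 past the start. A TATA box (TATAAA) had 0 matches. Of 32851 mouse promoters in the RefSeq table, whose windows run slightly further into the transcript, 37.4% held a CCAAT box, 35.7% a GC box, 17.9% the homology region and 13.6% a TATA box. Of the 12 genes of the spindle and cell cycle list that had an entry, 11 held a CCAAT box, 10 a GC box, 8 the homology region and 0 a TATA box. Such matches were not particular to Hmmr among the members with a listed promoter. Has1 also held a CCAAT box and the homology region, Hyal1 and Vcan each held a CCAAT box and GC boxes, and Hyal2 and Cd44 held a GC box only. All these matches describe letters and not bound sites.

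**Figure D3:**
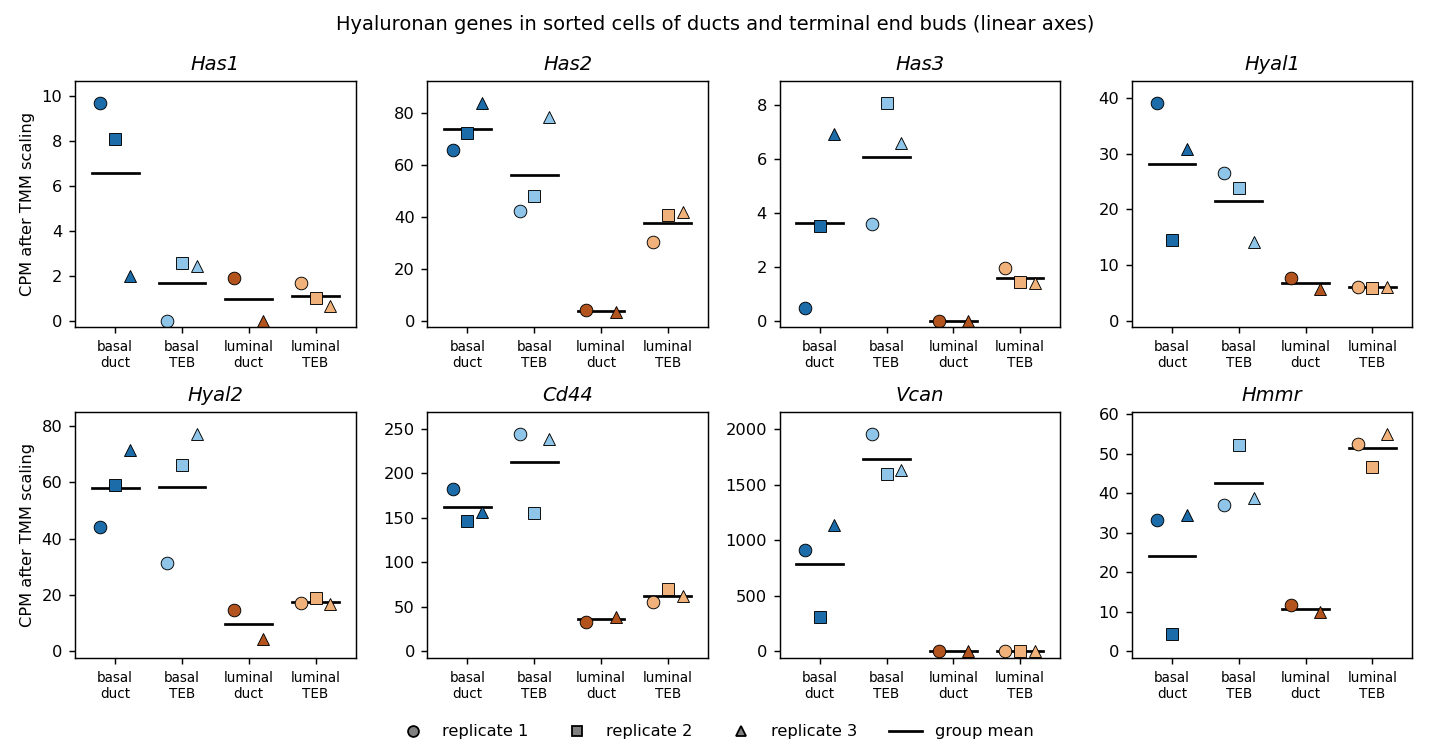
CPM after TMM scaling of each of the 8 genes in the 11 libraries, with 1 panel per gene, linear axes that differ between panels, marker shapes for replicates and a bar for the group mean. Hyal1, Hyal2, Cd44, Vcan and, by a small margin, Has2 are higher in every basal library than in every luminal one. The share of all genes that separate the cell types in this way was not computed. Has2 and Hmmr are higher in luminal TEB than luminal duct.

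Which cell type and which structure hold these RNAs was the question of the group comparisons. Between basal and luminal duct, 5 of the 7 tested members passed the threshold, an adjusted p below 0.05, and all 5 were higher in basal cells: Has3, Hyal1, Hyal2, Cd44 and Vcan. Of all 17370 genes tested, 22.3% passed in that comparison, and 12.6% passed and were higher in basal cells. Between basal and luminal TEB 4 of the 7 passed, Hyal1, Hyal2, Cd44 and Vcan, again all higher in basal cells, against 25.1% of all genes that passed and 13.2% that passed and were higher in basal cells. Scaled by library totals alone, 37.2% of all calls in TEBs were higher in basal cells, against 52.8% with TMM, and Hyal1 (1.41, adjusted p = 0.0509) and Hyal2 (1.40, adjusted p = 0.0860) fell below the threshold, which left 2 members.

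Between TEBs and ducts none of the 7 members passed in either cell type by edgeR's quasi-likelihood test. In basal cells 0 of 7 passed, with 1 (Vcan) at an unadjusted p under 0.05, and 1.32% of all genes passed. In luminal cells 0 of 7 passed, with 3 (Has3, Cd44 and Hmmr) at an unadjusted p under 0.05, and 1.41% of all genes passed. That share stood for 245 genes, a number that was 37 without luminal TEB replicate 3, 54 and 76 without luminal TEB replicates 1 and 2, 1305 without luminal duct replicate 1, and 10 with library totals only. It was also over 1.5 times lower or higher when replicate 1 (150) or 3 (161) of basal duct, or replicate 1 (436) or 3 (148) of basal TEB, was left out. The same 3 were called by the likelihood ratio test of edgeR and by DESeq2. The libraries of the compared groups did not overlap for 2 of the 7 members in basal cells, where 20.8% of all genes did the same, and for 5 of the 7 in luminal cells, where 43.7% did. The TEB effect differed between the cell types for 0 of 7 members, with 2 at an unadjusted p under 0.05, against 0.443% of all genes that passed. DESeq2 and the likelihood ratio test each called 2 there, Vcan among them. With basal duct replicate 2, basal TEB replicate 1 and luminal duct replicate 3 left out together, the number of members called was 0 for basal TEB against duct, 1 for luminal TEB against duct, 6 and 4 between the cell types in ducts and TEBs, and 1 for the difference in TEB effect.

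**Figure D4:**
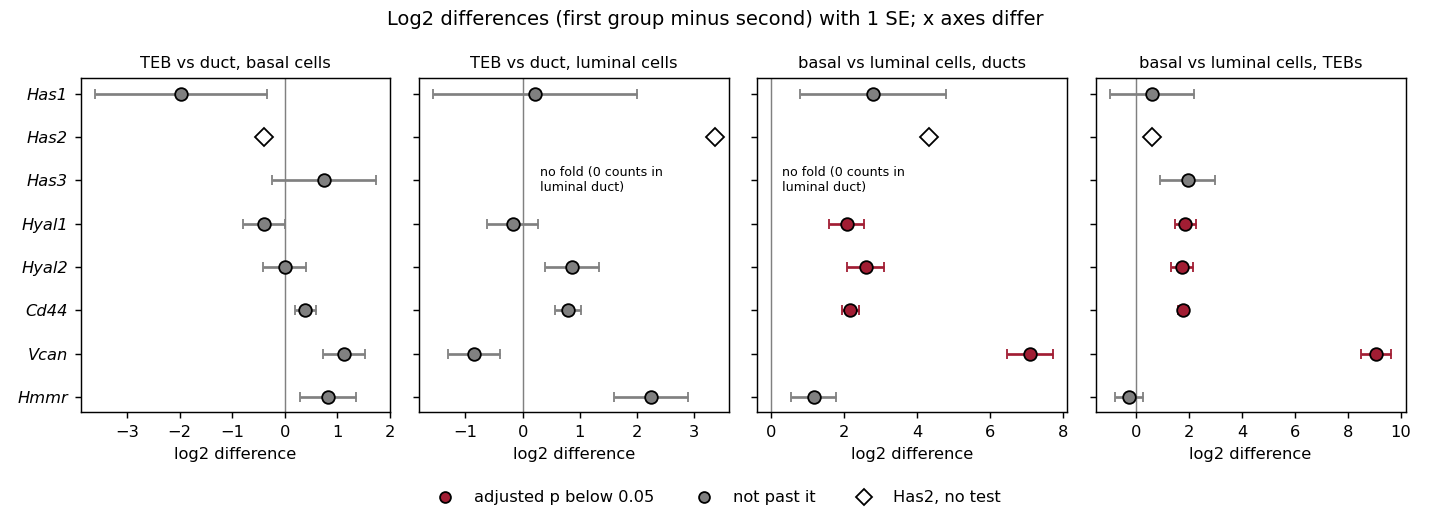
Log2 differences of the 8 genes (first group minus second) in 4 comparisons, with 1 standard error on either side. Red points passed an adjusted p of 0.05, grey points did not, open diamonds mark Has2, which was not tested, and Has3 has no value against luminal duct, where it had 0 counts. Passing points occur only in the panels of basal against luminal cells, with Vcan farthest out at 7.09 and 9.07.

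Per length, the order of the genes differed by group. In basal duct it was Vcan at 53.5 RPKM, Hyal2 at 31.4, Cd44 at 28.7, Has2 at 17.4, Hyal1 at 12.9, Hmmr at 6.15, Has1 at 3.14 and Has3 at 0.614 RPKM. The libraries of neighbours in that order overlapped, except for Cd44 and Has2. In basal TEB Vcan was at 117.7 ± 13.6 RPKM, followed by Cd44 at 37.6 ± 8.81 and Hyal2 at 31.5 ± 12.9 RPKM (SD, n = 3), and the last pair overlapped. In luminal TEB Hmmr came first at 13.1 RPKM and then Cd44 at 11.1, Hyal2 at 9.53 and Has2 at 8.87 RPKM, with Vcan last at 0.219 RPKM. From Hmmr to Has2 each neighbouring pair there overlapped. In luminal duct the highest mean was that of Cd44 at 6.40 RPKM, then Hyal2 at 5.22 RPKM, but Hyal2 was above Cd44 in replicate 1 (8.04 and 5.93 RPKM) and below it in replicate 3 (2.40 and 6.87 RPKM). Has2 was at 0.862 RPKM there. The receptor Cd44 thus ranked in the first 3 in each group, and with the exon lengths of GENCODE M21 in place of the deposited lengths 6, 8, 4 and 4 of the 8 genes kept their rank in basal duct, basal TEB, luminal duct and luminal TEB.

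The genes whose log2 levels over the 11 libraries lay closest to each of 4 members were found among 10371 genes by the root mean square of the difference of centred log2 CPM. For Vcan they were Col4a1 (0.42) and Col4a2 (0.46), the chains of basement membrane collagen IV. For Hmmr they were Spc24 (0.19), a kinetochore gene, Cenpm (0.32), a centromere gene, and Gen1 (0.33), a gene of a DNA junction-cutting enzyme. For Cd44 they were Ikbke (0.20), Znrf3 (0.25) and Tm7sf3 (0.25). For Has2 they were Chst12 (0.58), a chondroitin sulfotransferase gene, Ldlrad3 (0.60) and Evc (0.65). The distances are not comparable between members, whose log2 levels ranged over 4.63 for Has2, 2.86 for Cd44, 9.48 for Vcan and 3.63 for Hmmr.

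Genes that supply, process or bind the same polymer were taken from 7 lists of 67 genes, of which 58 were tested. Between basal and luminal cells 23 of the 58 passed in ducts (13 higher and 10 lower in basal cells) and 21 in TEBs (13 higher and 8 lower), where 22.3% and 25.1% of all genes passed, and 12.6% and 13.2% passed and were higher in basal cells. Between TEBs and ducts 1 passed in basal cells and 4 in luminal cells, where 1.32% and 1.41% of all genes passed. Those counts were unstable. With each library left out in turn the basal count ran from 0 to 4, and it was 0 without basal duct replicate 1 or 2, basal TEB replicate 1 or 3, or any 1 luminal TEB library. The luminal count ran from 0 to 9, and it was 0 without any 1 luminal TEB library and 9 without basal duct replicate 2. Each of the lists below is to be read against the same shares of all genes.

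Proteases of the ADAMTS family cut versican. Of 6 tested, 4 were higher and 1 lower in basal cells in ducts, and 5 were higher in TEBs, where 22.3% and 25.1% of all genes passed, with a median log2 difference of 5.24 in TEBs against 0.04 over all genes. Adamts1 was at 876 ± 244 CPM in basal duct and 26.3 ± 1.05 CPM in luminal duct (log2 difference 5.06, SE 0.32, adjusted p = 1.47e-06), and 5.23 (SE 0.27) log2 units higher in basal TEB (adjusted p = 1.73e-07). Adamts4 was 5.26 log2 units higher in basal TEB (SE 0.57, adjusted p = 3.2e-05). Adamts20 had 50.7, 66.6 and 36.9 CPM in basal duct against 0.0228 and 0.0411 CPM in luminal duct, where the libraries held 2 counts in all, and was called there and in TEBs (adjusted p = 6e-06 and 7.52e-07). The gene lower in basal duct was Adamts15 (-2.01, SE 0.44, adjusted p = 0.00559), and Adamts5 was also higher in basal TEB (4.13, SE 1.25, adjusted p = 0.0292), both named after their values were seen.

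Adamts9 was the 1 gene of the lists whose TEB effect differed between the cell types. It was measured at 174, 137 and 186 CPM in basal duct and 188, 239 and 253 CPM in basal TEB, and at 19.9 and 10.6 CPM in luminal duct and 4.80, 3.89 and 5.28 CPM in luminal TEB. TEB libraries were above duct libraries in basal cells and below them in luminal cells, without overlap in either. Of all genes tested, the share without overlap was 20.8% in basal cells and 43.7% in luminal cells. The basal difference was 0.45 on the log2 scale (SE 0.24) and did not pass (adjusted p = 0.406). The luminal fall was 1.72 on the log2 scale (-1.72, SE 0.27, adjusted p = 0.0129).

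The precursor enzymes moved in both directions. Of 7 tested, 1 was higher and 3 were lower in basal cells in ducts, and 1 was higher and 1 lower in TEBs, with medians of -0.53 and -0.51 on the log2 scale. Gnpnat1, an enzyme gene of the pathway to UDP-N-acetylglucosamine, was 1.79 log2 units lower in basal than luminal duct (-1.79, SE 0.28, adjusted p = 0.000613). Gfpt2, whose enzyme opens that pathway, was at 27.5 ± 10.4 CPM in basal TEB and 287 ± 27.5 CPM in luminal TEB (log2 difference -3.38, SE 0.39, adjusted p = 4.58e-05). The gene higher in basal cells in both was Ugdh, the enzyme gene that makes UDP-glucuronic acid (1.61, SE 0.25, in ducts and 1.34, SE 0.22, in TEBs, adjusted p = 0.000678 and 0.000692). Gfpt2 (-1.36) and Pgm3 (-1.24) were the others lower in basal duct. Ugdh and Pgm3, like the further genes named below without levels, were named after their values were seen.

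Of 6 other breakdown genes tested, 2 were higher and 1 lower in basal cells in both ducts and TEBs. Cemip2, a cell-surface gene linked to hyaluronan breakdown, was the lower one, at 99.1 ± 16.6 CPM in basal TEB and 470 ± 50.6 CPM in luminal TEB (log2 difference -2.24, SE 0.25, adjusted p = 3.32e-05). Gusb, the lysosomal beta-glucuronidase, was higher in basal than luminal duct (1.59, SE 0.25, adjusted p = 0.000642) and higher in luminal TEB than luminal duct (1.18, SE 0.25, adjusted p = 0.0414), at 35.5, 39.1 and 42.6 CPM against 16.3 and 18.3 CPM.

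Of 11 matrix partners tested, 1 was higher and 2 lower in basal cells in ducts, and 2 and 2 in TEBs. Itih2, a heavy chain that is joined to hyaluronan, had 35.2 and 136 CPM in luminal duct and 399, 392 and 408 CPM in luminal TEB, against at most 3.98 CPM in any basal library (basal minus luminal duct -6.36, SE 1.24, adjusted p = 0.00286). Itih5, a related gene, was the other lower one (-4.01 in ducts and -6.52 in TEBs), and Ncan in both and Hapln3 in TEBs were the higher ones. Of 6 other receptor genes tested, 2 were higher in basal cells in ducts, and 2 were higher and 1 lower in TEBs. Tlr2 and Stab2 were the higher ones and Tlr4 the lower one. Stab2, a gene known from sinusoidal endothelium, was at 25.0 CPM in basal duct replicate 2, the library with the most endothelial marker RNA, and at 3.29 and 3.75 CPM in the other basal duct libraries, and the part of that RNA in its call was not tested.

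Of 8 genes of CD44 partners and splicing factors, 2 were higher and 3 lower in basal cells in ducts, and 1 and 3 in TEBs. Ezr, whose product ezrin ties CD44 to the actin cortex, was lower in basal cells in ducts (-2.79, SE 0.33, adjusted p = 8.49e-05) and in TEBs (-3.13, SE 0.32, adjusted p = 1.88e-05), where the basal TEB libraries had 83.0, 135 and 150 CPM. Esrp2, an epithelial splicing factor that acts on CD44 transcripts, was also lower in basal cells in both (-2.63 in ducts and -2.13 in TEBs, adjusted p = 4.61e-05 and 9.01e-05), as was Esrp1 (-0.68 and -1.07), while Mmp14 (0.76 and 0.75) and, in ducts, Msn (1.77) were higher. Msn, the gene of moesin, was the 1 gene of all lists called between TEB and duct in basal cells, at 402, 296 and 240 CPM in basal duct and 129, 145 and 128 CPM in basal TEB (-1.22, SE 0.24, adjusted p = 0.0311), a call that was lost without any 1 of the 7 libraries named above for the basal count. In the spindle and cell cycle list, Cenpe was 2.46 (SE 0.52, adjusted p = 0.0447) and Plk1 1.93 (SE 0.41, adjusted p = 0.0439) log2 units higher in luminal TEB than luminal duct.

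**Figure D5:**
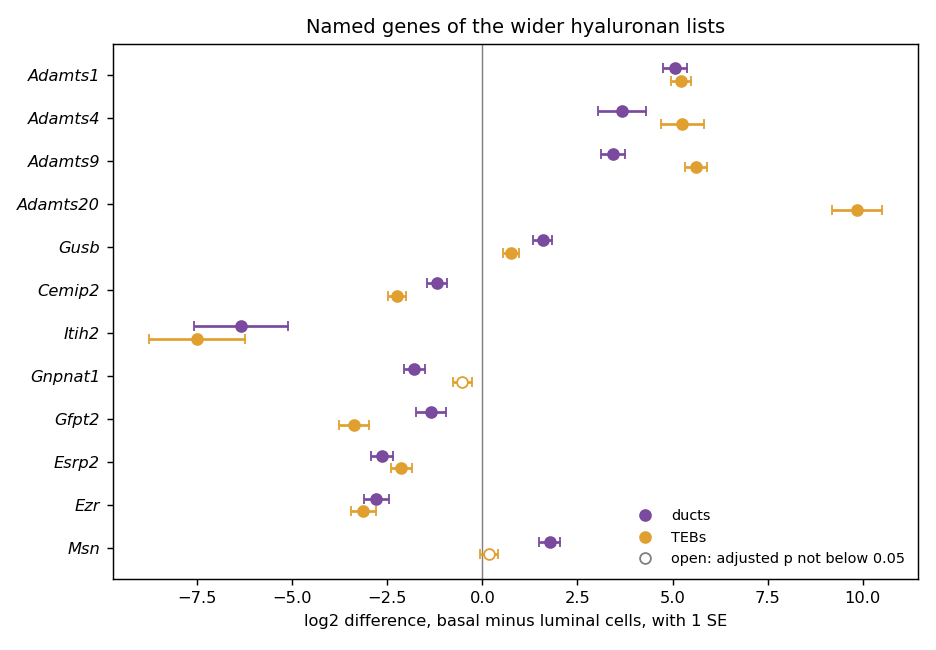
Log2 differences between basal and luminal cells (basal minus luminal, with 1 standard error) in ducts and in TEBs for 12 named genes of the wider lists, with open points for values that did not pass. Adamts1, Adamts4, Adamts9 and Adamts20 lie to the right of 0, and Itih2, Gfpt2, Esrp2, Ezr and Cemip2 to the left. Adamts5 and Adamts15, of which Adamts15 was lower in basal duct, are not plotted. Adamts20 has no point for ducts because luminal duct held 2 counts.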

How the data were processed

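RNA of 11 libraries (TruSeq RNA v2 kit) was sequenced by the authors as 80 bp paired-end reads, aligned to mm10 with Rsubread and counted per Entrez gene by featureCounts with its inbuilt RefSeq annotation; versions and the strand setting are not given in the sources used here. The deposited values are whole-number counts per gene, not normalized, and 11 of 11 single-library tables equalled the series table (0 unused columns). A luminal duct library was discarded by the authors. Symbols were matched for 93.0% of 27179 identifiers.

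Here, filterByExpr (minimum count 10, minimum total 15) left 17370 genes. Counts were scaled by TMM and fitted in 1 model over 4 groups by the quasi-likelihood test of edgeR 4.0.16 in R 4.3.3, with Benjamini-Hochberg adjustment over all genes and an FDR of 0.05. The SE is the absolute log2 fold change over the square root of F. The common BCV (biological coefficient of variation) came to 0.704. A gene at 0 counts was given a limit of 3 counts, for counting error only. limma 3.58.1 and DESeq2 1.42.0 served as alternatives. Scripts were tested on simulated counts. Members and lists were chosen with earlier results of these data known. Named genes are the members, genes overlapping them, the 3 nearest profiles (mean log2 CPM of at least 2, prior count 2) of 4 members, and up to 4 list genes in each direction per comparison by adjusted p. A few genes that this rule or the list counts would name are not reported here. Promoters came from RefSeq for 6 of 8 members; none was listed for Has2 and Has3. Proteins, ATAC-seq and single-cell data were not analysed here.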

Additional observations from a re-analysis of the deposited data

Results flagged for a closer look

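The TEB effect on Adamts9, a gene of a versican-cleaving protease, differed between basal and luminal cells. The interaction term, the TEB minus duct difference in basal cells minus that in luminal cells, was 2.17 on the log2 scale (SE 0.36, adjusted p = 0.0273 by edgeR's quasi-likelihood test). Adamts9 was higher in TEBs in 3 of 3 basal libraries and lower in 3 of 3 luminal ones. The basal difference taken alone (0.45, SE 0.24) did not pass (adjusted p = 0.406). Over 23 alternatives the term ran from 1.64 to 2.66, and it was called in 13 of them, with adjusted p from 7.44e-06 to 0.254. The call was lost without basal duct replicate 1 (adjusted p = 0.0942) or 2 (0.0627), when basal TEB replicate 3 was left out (0.0836), and with luminal TEB replicate 1 (0.0784), 2 (0.0870) or 3 (0.0797) missing. It was also lost with the replicate number as a block (2.12, adjusted p = 0.0584), with library totals only (0.254), with limma voom (0.105) and with sample quality weights (0.0610). The summed basal markers were also lower in luminal TEB (12.7 to 25.8 CPM) than in luminal duct (87.8 and 239 CPM), and their part in the luminal fall of Adamts9 was not tested.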

How the results depend on the processing

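Of the alternatives for single members, 764 stayed the same, 5 lost a call, 23 gained one, 19 changed sign and 1 moved. For the tested members the same meant direction and side of the threshold. For Has2, which had no test, it meant direction and a shift below the larger SD of log2 CPM in the compared groups. The 1 that moved was Has2 in luminal TEB against duct. The number of members called changed as follows. For basal TEB against duct it was 1 with limma voom. For luminal TEB against duct it was 1 without a filter, with a filter at a mean CPM of 1, with only the groups compared and with 3 libraries left out (basal duct 2, basal TEB 1 and luminal duct 3, an alternative chosen after seeing the data), 3 with the likelihood ratio test and with DESeq2, and 0 to 1 with each library left out in turn (1 without basal duct 1 or 2, basal TEB 1 or luminal duct 1). For basal against luminal cells it was 3 in ducts with sample quality weights, 4 without luminal duct 3 and 6 without basal duct 2 or with the 3 libraries left out. In TEBs it was 2 with library totals only, 3 at an FDR of 0.01, and 5 with sample quality weights or only the groups compared. For the difference between the cell types it was 2 with the likelihood ratio test and DESeq2, 1 with the 3 libraries left out, and 0 to 1 with each left out (1 without basal duct 2). The changes of sign were in differences that passed no test. Has1 in luminal TEB against duct was -0.75 with both libraries of highest mitochondrial share or the 3 libraries left out, and -0.77 (without luminal duct replicate 3) to 0.48 with each library left out. Between basal and luminal TEB it was -0.59 with limma voom. Hyal1 in luminal TEB against duct was 0.19 with library totals only and -0.37 to 0.060 with each library left out. Hyal2 in basal TEB against duct was -0.040 with DESeq2 size factors, -0.056 with totals only, -0.024 with the CPM filter or without mitochondrial genes, -0.041 with DESeq2, and from -0.25 to 0.31 overall. The cause was not tested. Library totals alone shifted the median of all genes by 0.37 (luminal TEB against duct), -0.38 (basal against luminal TEB), -0.11 (basal TEB against duct), 0.11 (basal against luminal duct) and -0.49 (difference between the cell types), and Has2 in luminal TEB against duct was then 3.73. Same-numbered libraries deviated together only weakly (r from -0.068 to 0.163, median 0.069, over 15 pairs, 4 above 0.1, 7 of 11 libraries nearest to their own number). Differently numbered pairs ran from -0.163 to 0.137. Deviations were taken from means of 2 or 3 libraries, so these r values cannot decide whether the numbers mark pairs. The methods of the study name no block, and the numbers were not taken as pairs. With the replicate number as a block the members called were 0, 0, 5, 4 and 0 in the order basal and luminal TEB against duct, basal against luminal duct and TEB, and difference, Hyal2 in basal TEB against duct was -0.0087, and the calls over all genes went from 230 to 204, 245 to 125, 3878 to 3293, 4354 to 4030 and 77 to 46. Wider list genes called between TEB and duct ranged from 0 to 9 in basal and from 0 to 17 in luminal cells. With 2 luminal duct libraries, a common spread is assumed, and Has1 and Has3 rest on few counts.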
